A study of Mus musculus with 6 samples.

Results

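Contactin 2, 3 connexins, a pair of pacemaker channels and 3 transcriptional regulators of the cardiac conduction system were followed in left ventricular RNA of adult mice whose mothers had received caffeine or vehicle during pregnancy. The 9 genes (Cntn2, Gja5, Gja1, Gjc1, Hcn4, Hcn2, Tbx3, Etv1 and Hopx) were selected by symbol from the 43629 genes counted in each heart. They were chosen from genes whose response to caffeine in these same hearts was already known, so their difference between treatments is given below as a description and no test is read from it. All 9 passed the filter on low counts that left 13092 genes.

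Pregnant CD-1 mice, an outbred strain, were injected intraperitoneally with normal saline (vehicle) or with 20 mg/kg caffeine, 1 time a day. One field of the sample descriptions gives the exposure as embryonic day 6.5 to 9.5 and another ends it at 10.5. The offspring were not dosed themselves, and the left ventricles of 3 males per treatment were taken at 1 year of age for sequencing of poly(A) RNA. The mother of each heart is not given, so hearts of 1 treatment may be littermates, and every interval and p-value below measures the spread between these 6 hearts. The comparison asks whether genes that serve the electrical impulse differ in the adult heart after exposure in the womb, and whether Cntn2 is lower alone or together with the other conduction genes.

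The heartbeat starts in the sinoatrial node, where hyperpolarization-activated (HCN) channels let in the current that drives the cell towards its next action potential. It then passes the atrioventricular node and spreads through the His bundle, the bundle branches and the Purkinje fibers that line the inner wall of both ventricles. Cells hand the impulse on through gap junctions, channels built of connexins, whose make-up differs between slow nodal tissue, fast Purkinje fibers and working muscle. T-box, Nkx, Iroquois and ETS transcription factors set these regional programs. A left ventricle holds working muscle and only a thin layer of Purkinje fibers, and in its bulk RNA fewer cells of a type and less RNA per cell cannot be told apart.

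Libraries held between 7613011 and 10483101 counts, and every caffeine library was shallower than every vehicle library. Values are therefore given as CPM (counts per 1000000 counts of the library, scaled by TMM factors), where 3 counts correspond to 0.284 to 0.420 CPM. Working muscle markers made up 69320 to 81240 CPM in vehicle-treated and 69480 to 72950 CPM in caffeine-treated hearts, as the ventricular label asks, with all 9 of the markers detected. Of 13 nodal genes only Isl1, a factor of the sinoatrial node, had no count in any heart. That allows at most 0.420 CPM in the shallowest library and covers counting error only. Another 8 of the nodal genes passed the filter on low counts, so the nodal list was not absent from these hearts.

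Sequences before the annotated starts of 3 genes are shown because these genes span the pattern described below, with Cntn2 and Hcn4 the lowest after caffeine and Gja5 the gene closest to no difference. They are RefSeq sequences of GRCm38.p6, read 5′ to 3′ on the strand of the gene and ending 1 base before its RefSeq start. Capitals mark matches to the T-box element (AGGTGT, here on the other strand) and the ETS core (CCGGAA, likewise on the other strand). The Cntn2 stretch covers chr1:132542941-132543028 on the minus strand, cut to the 88 bases that touch no annotated exon, and it lies inside the annotated span of the gene. The Hcn4 stretch covers chr9:58822699-58822948 on the plus strand, upstream of the gene. The Gja5 stretch covers chr3:97032152-97032401 on the plus strand, inside the span of the gene and outside its exons.
Cntn2: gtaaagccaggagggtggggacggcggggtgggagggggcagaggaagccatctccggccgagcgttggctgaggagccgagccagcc
Hcn4: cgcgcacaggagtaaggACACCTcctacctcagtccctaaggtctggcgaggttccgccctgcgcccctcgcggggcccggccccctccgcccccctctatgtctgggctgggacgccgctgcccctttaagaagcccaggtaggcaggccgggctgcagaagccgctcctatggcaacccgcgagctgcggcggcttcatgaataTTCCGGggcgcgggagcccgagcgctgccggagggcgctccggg
Gja5: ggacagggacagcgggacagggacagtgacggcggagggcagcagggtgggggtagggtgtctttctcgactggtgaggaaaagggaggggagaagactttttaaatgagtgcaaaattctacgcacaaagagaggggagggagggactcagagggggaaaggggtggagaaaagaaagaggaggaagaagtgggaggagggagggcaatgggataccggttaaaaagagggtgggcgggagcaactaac

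In all, 5 motifs of conduction regulators were searched on both strands in the 250 bases before the start. In Hcn4 the T-box element stood at -233 to -228 and the ETS core at -44 to -39, counted from the RefSeq start. Among 32851 mouse promoters of the same length, 11.8% held the T-box element and 12% the ETS core. The Cntn2 and Gja5 windows held neither of them, nor the NKX2-5 element (TNAAGTG, in 10.1% of promoters), the Iroquois element (ACATGT, 4.58%) or the GATA element (AGATAA, 9.99%). A GATA element stood at -135 to -130 in Gja1. Of the 9 genes, 7 had a promoter entry, and Gjc1 and Tbx3 were among those not matched. Each match is a run of letters and not a measured binding site.

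Cntn2 showed by far the widest gap between treatments among the 9 genes. It encodes a cell adhesion molecule of the immunoglobulin superfamily, best known from axons and used in the heart as a marker of Purkinje and other conduction cells. The gene (ENSMUSG00000053024) lies at chr1:132509427-132543256 on the minus strand and overlaps no other annotated gene. The 3 vehicle-treated hearts held 40, 77 and 133 counts, which is 3.91, 7.29 and 13.5 CPM. The 3 caffeine-treated hearts held 3, 11 and 9 counts, or 0.420, 1.24 and 1.06 CPM. Every caffeine-treated heart was below every vehicle-treated heart, and the vehicle-treated hearts also varied widely among themselves, with vehicle heart 3 above the others. The mean level was 8.22 ± 4.85 CPM with vehicle and 0.906 ± 0.431 CPM with caffeine (SD, n = 3 hearts each).

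On the log2 scale Cntn2 was lower by -3.12 with a standard error of 0.506 and a 95% interval of -4.24 to -2.01, which is 8.70-fold lower (4.01 to 18.8). Of all 13092 tested genes, 1 had a lower log2 fold change. Cntn2 passed the filter on low counts through its vehicle-treated hearts, the group where it was high, so this rank is a description only. The caffeine estimate rests on 23 counts in all, against 250 counts with vehicle, and caffeine heart 1 sat at the 3-count floor. Leaving out any 1 heart or changing the scaling or the test kept the log2 difference of Cntn2 between -3.46 and -2.58.

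**Figure D1:**
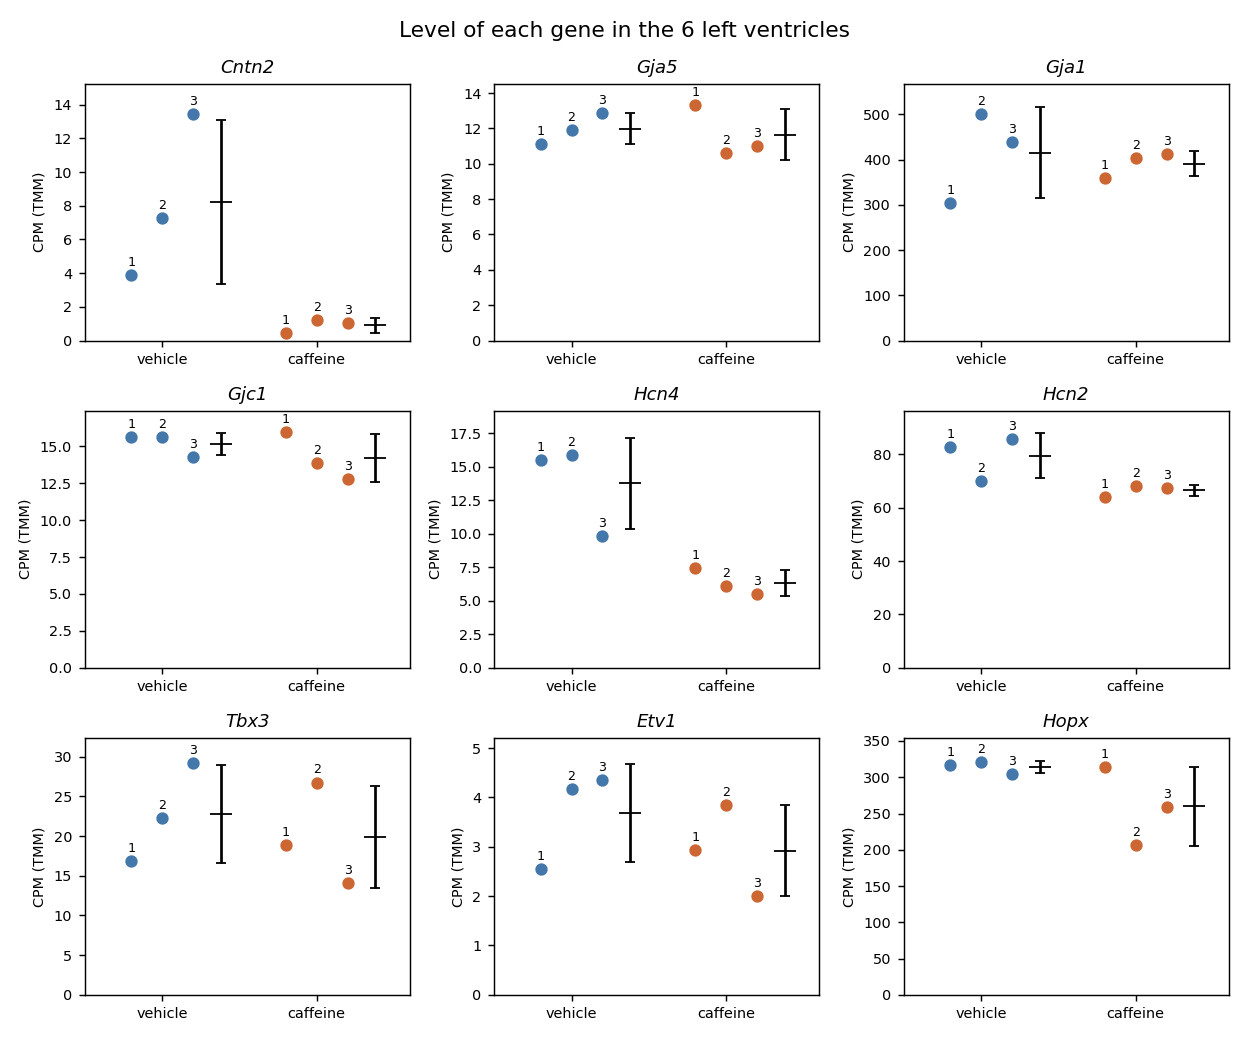
Level of each of the 9 genes in CPM (y axis, from 0) in the 3 vehicle-treated (blue) and 3 caffeine-treated (orange) hearts, with replicate numbers above the points and bars for the mean ± SD. The treatments do not overlap for Cntn2, Hcn4 and Hcn2, and they overlap for the other 6 genes.

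The connexins differed little between treatments. Gja5 encodes connexin 40, the gap junction protein of the atria, the His bundle and Purkinje fibers, which arterial endothelium also carries. The gene (ENSMUSG00000057123) spans chr3:96904693-97077416 on the plus strand. It was at 11.1, 11.9 and 12.9 CPM in vehicle-treated and 13.3, 10.6 and 11.02 CPM in caffeine-treated hearts. The highest and the lowest values both came from caffeine-treated hearts, so the treatments overlapped fully. The log2 difference was -0.05 (SE 0.15, 95% interval -0.37 to 0.28), an interval that lies wholly above that of Cntn2. Gpr89, on the other strand, shares 165 exon bases with Gja5 and had 1281 counts over the 6 hearts. The library kit does not mark strand, so reads from the shared bases cannot be assigned by strand.

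Gja1 encodes connexin 43, the main gap junction protein of working ventricular muscle (ENSMUSG00000050953, chr10:56377330-56402513, plus strand). Its level was 304, 500.2 and 439.6 CPM with vehicle and 359, 402.7 and 411 CPM with caffeine. The caffeine-treated hearts all fell inside the vehicle range. The log2 difference was -0.08 (SE 0.15, 95% interval -0.42 to 0.25), and it was 0.07 when vehicle heart 2 was left out. Gjc1 encodes connexin 45, which forms the low-conductance junctions of nodal cells (ENSMUSG00000034520, chr11:102799579-102819700, minus strand). It was at 15.6, 15.6 and 14.3 CPM with vehicle and 16.0, 13.9 and 12.8 CPM with caffeine. Caffeine heart 1 had the highest Gjc1 of all 6 hearts and the other caffeine-treated hearts the lowest levels. Gjc1 differed by -0.10 on the log2 scale (SE 0.13, 95% interval -0.40 to 0.20).

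Hcn4 was the only other member with a difference of more than 1.5-fold. It encodes the main HCN channel of the sinoatrial node, which the Purkinje system also uses (ENSMUSG00000032338, chr9:58823412-58863175, plus strand). Counts were 159, 168 and 97 in vehicle-treated and 53, 54 and 47 in caffeine-treated hearts. These correspond to 15.5, 15.9 and 9.83 CPM with vehicle and 7.42, 6.10 and 5.51 CPM with caffeine. The treatments did not overlap, and the caffeine-treated hearts lay close together. The mean was 13.7 ± 3.41 CPM with vehicle and 6.34 ± 0.978 CPM with caffeine (SD, n = 3 each), 2.18-fold lower (95% interval 1.58 to 3.02). On the log2 scale the difference was -1.12 (SE 0.21, 95% interval -1.59 to -0.66), which ranked 43 from the lowest of 13092 genes.

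Hcn4 and Cntn2 did not follow each other within a treatment. Vehicle heart 3 had the highest Cntn2 and the lowest Hcn4 of its group, and caffeine heart 1 had the lowest Cntn2 and the highest Hcn4 of its group. Pearson's r of their deviations from the group means was -0.85 over the 6 hearts, a description over 6 points from libraries of unequal depth.

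Hcn2 encodes the HCN channel that is also found in working ventricular muscle (ENSMUSG00000020331, chr10:79716634-79736108, plus strand). It stood at 82.7, 69.9 and 85.9 CPM with vehicle and 64.1, 68.1 and 67.3 CPM with caffeine. All caffeine-treated hearts were below all vehicle-treated hearts, but vehicle heart 2 was within 2 CPM of the nearest caffeine-treated heart. The log2 difference was -0.26 (SE 0.10, 95% interval -0.47 to -0.04), or 1.20-fold lower.

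Among the transcriptional regulators the treatments overlapped for each gene. Tbx3 encodes a T-box repressor that keeps conduction tissue from taking on the program of working muscle (ENSMUSG00000018604, chr5:119670669-119684724, plus strand). It was at 16.9, 22.3 and 29.2 CPM with vehicle and 18.9, 26.8 and 14.1 CPM with caffeine. Its log2 difference was -0.19 (SE 0.24, 95% interval -0.72 to 0.33). Its direction rested on single hearts, since the highest log2 difference over the settings tried was 0.02, without vehicle heart 3.

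Etv1 encodes an ETS factor of fast-conducting Purkinje and atrial muscle cells (ENSMUSG00000004151, chr12:38779380-38870484, plus strand). With vehicle it was at 2.54, 4.16 and 4.36 CPM and with caffeine at 2.94, 3.84 and 1.99 CPM. The log2 difference was -0.33 with the widest interval after Cntn2 (SE 0.31, -1.02 to 0.36), and the gene had only 17 to 44 counts per heart. In both groups Etv1 and Tbx3 ranked the hearts in the same order, with vehicle heart 3 highest and caffeine heart 3 lowest of all 6.

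Hopx encodes a small homeodomain protein that does not bind DNA itself (ENSMUSG00000059325, chr5:77086988-77115121, minus strand). It was at 316.5, 320.6 and 305 CPM with vehicle and 314, 206 and 258.7 CPM with caffeine. The vehicle-treated hearts were tight, and caffeine heart 1 lay among them while caffeine hearts 2 and 3 lay below. Hopx differed by -0.27 on the log2 scale (SE 0.13, 95% interval -0.56 to 0.01). Antisense transcripts overlap both Hopx (Hopxos, 412 shared exon bases) and Tbx3 (Tbx3os1, 115 shared bases), and each had 8 counts in all 6 hearts together.

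**Figure D2:**
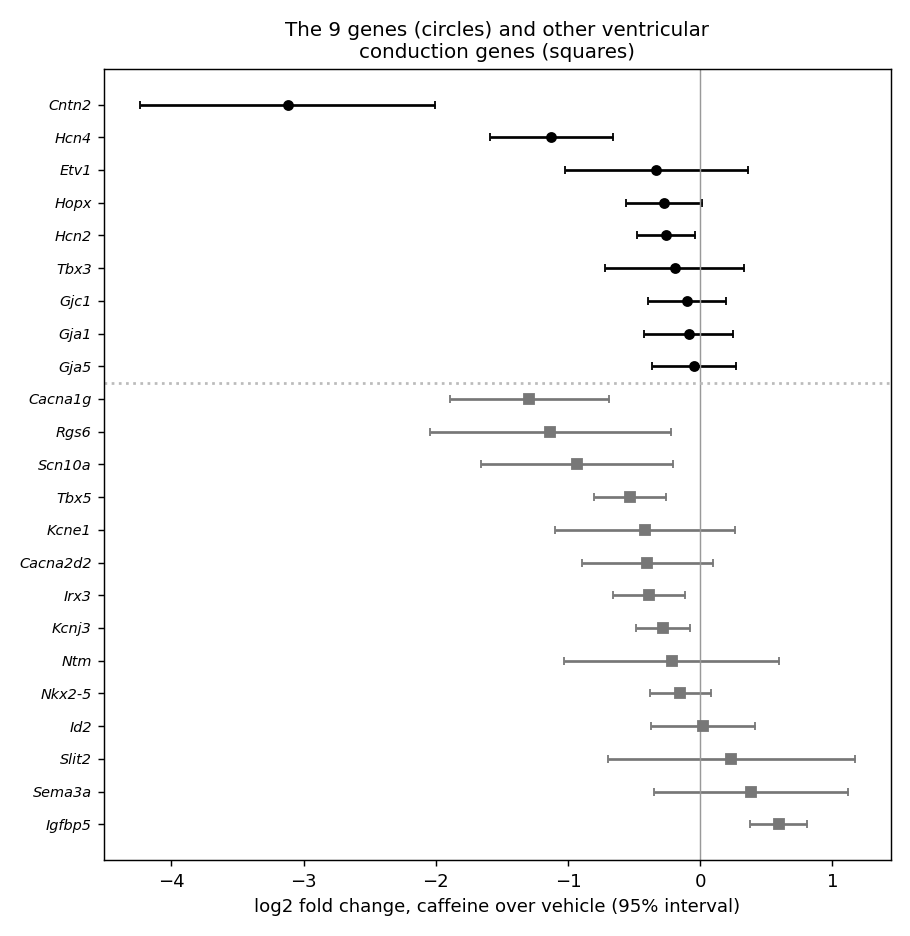
Log2 fold change of caffeine over vehicle (x axis) with its 95% interval for the 9 genes (black circles) and for 14 other genes of ventricular conduction (grey squares), each group ordered from low to high. The interval of Cntn2 lies below those of all the other 8 genes, those of Hcn4 and Hcn2 lie below 0 and the other 6 include 0.

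Side by side, all 9 log2 differences were below 0, with a median of -0.26, and -0.22 without Cntn2. Over all tested genes 49.8% were below 0 and the median was 0.001. For 3 members (Cntn2, Hcn4 and Hcn2) every caffeine-treated heart was below every vehicle-treated heart, as was so for 7.12% of all tested genes. Differences ranged from the -3.12 of Cntn2 over the -1.12 of Hcn4 to 7 values between -0.33 and -0.05. The sign of 3 of these small values depended on single hearts, for Gja1 on vehicle heart 2 and for Tbx3 on vehicle heart 3 or caffeine heart 3. For Gja5 the log2 difference turned to 0.01 without vehicle heart 3 and to 0.02 without caffeine heart 2. Scaling by library size alone moved the median of all genes to -0.08, with 67.3% of them below 0. This scaling lowered the 9 members too, so it could not change their sign and nothing is read from it.

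The number of members called, at a Benjamini-Hochberg adjusted p below 0.05 and a fold change above 1.5, depended on the tool. The quasi-likelihood test of edgeR called 0 of the 9 (0.107% of all tested genes), and limma-voom also called 0 (0.107%). The exact test of edgeR called 2 (0.718% of all genes) and DESeq2 called 2 (0.512%), in each case Cntn2 and Hcn4. At an unadjusted quasi-likelihood p below 0.05 there were 3 members, against 8.82% of all genes. Since the genes were chosen from this same contrast, these counts describe the 9 genes and nothing is read from them.

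Levels were compared between genes per kilobase of exon, since longer transcripts collect more reads. In vehicle-treated hearts Hopx was highest, at 201.2 to 211.5 CPM per kilobase, followed by Gja1 at 29.6 to 48.8 and Hcn2 at 21.9 to 26.9. Tbx3 (2.55 to 4.41), Gjc1 (2.86 to 3.12), Hcn4 (1.61 to 2.60) and Gja5 (1.94 to 2.24) formed a middle group. Within it, Tbx3 overlapped with both Gjc1 and Hcn4, and Hcn4 with Gja5, so the order inside these pairs is not beyond their spread. Cntn2 at 0.420 to 1.45 and Etv1 at 0.191 to 0.328 CPM per kilobase were lowest.

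With caffeine the order was the same except at 2 places. Hcn4, at 0.901 to 1.21 CPM per kilobase, lay below Gja5 at 1.85 to 2.32, and Cntn2, at 0.0451 to 0.133, lay below Etv1 at 0.150 to 0.289. Neither pair overlapped. Gja1 stood at 35.0 to 40.1 CPM per kilobase with caffeine, inside its vehicle range, while Cntn2 was at the bottom of the order. The order depends on the lengths used, since with the longest transcript of each gene Gja5 rather than Hcn4 came sixth with vehicle, and with caffeine Gjc1 came before Tbx3.

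**Figure D3:**
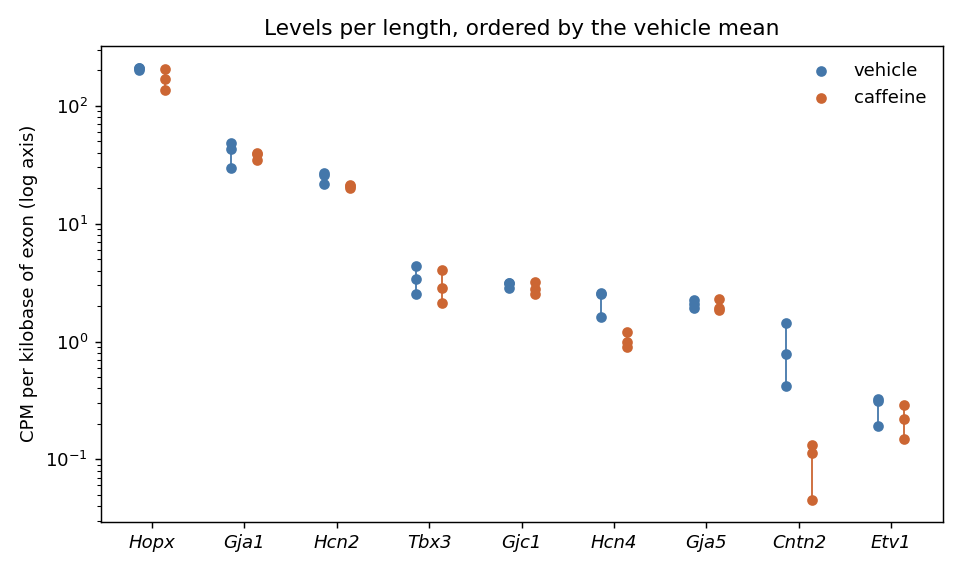
Level per kilobase of exon (y axis, log scale, CPM per kilobase) of the 9 genes in vehicle-treated (blue) and caffeine-treated (orange) hearts, each point 1 heart, ordered by the vehicle mean. Hopx is near 207.2 with vehicle and Cntn2 is at 0.133 or less with caffeine, below Etv1.

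The genes whose level followed Cntn2 most closely over the 6 hearts were none of the other 8. Among 13061 genes with a mean of at least 1 CPM, Mta3 came first (Pearson's r of log2 CPM 0.995), then Nacc2 (0.985), Rsf1 (0.984), Fmo2 (0.981) and Gcdh (0.977). Their own log2 differences were small, between -0.38 for Rsf1 and -0.17 for Nacc2. Of the other 8 genes, Hcn2 ranked highest in this order, at 545 (r 0.80), followed by Hcn4 at 1240 (0.68), Etv1 at 1948 (0.57) and Tbx3 at 2532 (0.50). Hopx (3284), Gja1 (3298), Gja5 (5401) and Gjc1 (5495) ranked further down. The order of the 8 was different for deviations from the group means. There Gja1 ranked highest, at 1527 (r 0.71), then Tbx3 at 2188 (0.61), Etv1 at 2900 (0.51) and Hcn2 at 4429 (0.30). Gja5 was at 7280 (-0.10), and Hopx at 10839 (-0.61), Gjc1 at 11914 (-0.76) and Hcn4 at 12474 (-0.85) went the opposite way to Cntn2. These are descriptions over 6 hearts that share their treatment groups and library depths.

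A list of 16 further genes of ventricular conduction gave mixed values. Of the 14 that could be tested, 0 were called by the quasi-likelihood test (all genes 0.107%), 7 had an unadjusted p below 0.05 (all genes 8.82%), and the exact test (0.718%) and DESeq2 (0.512%) called 2 each. Their median log2 difference was -0.33 (all genes 0.001), with 10 below 0 and 4 above. Treatments did not overlap for 6 genes that were lower (all genes 7.12%) and 1 that was higher with caffeine (all genes 7.11%). Cacna1g, a T-type calcium channel gene, was at 26.4, 43.3 and 18.7 CPM with vehicle and 11.2, 10.3 and 14.7 CPM with caffeine (log2 difference -1.29, SE 0.27, edgeR adjusted p = 0.135). Rgs6, a regulator of G protein signalling, overlapped between treatments (2.25, 8.33 and 5.47 against 2.10, 2.82 and 2.35 CPM; -1.13, edgeR adjusted p = 0.422). Scn10a, a sodium channel gene, was low throughout, at 2.74, 2.84 and 3.04 CPM with vehicle and 0.840, 1.47 and 2.11 CPM with caffeine (-0.93, edgeR adjusted p = 0.407).

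The most abundant genes of that list went different ways. Igfbp5, an insulin-like growth factor binding protein gene that is strong in Purkinje cells, was at 235.2, 231.6 and 274.8 CPM with vehicle and 346.9, 368.3 and 403.6 CPM with caffeine. Every caffeine-treated heart was above every vehicle-treated heart, with a log2 difference of 0.59 (SE 0.10, edgeR adjusted p = 0.0584). Nkx2-5, a homeobox factor of all heart muscle, overlapped between treatments (log2 difference -0.15, edgeR adjusted p = 0.738). Kcnj3, a subunit of the acetylcholine-gated potassium channel, was at 45.2 to 51.5 CPM with vehicle and 38.8 to 40.7 CPM with caffeine (-0.28, edgeR adjusted p = 0.371). The 6 genes that were lower without overlap were Cacna1g, Scn10a, Kcnj3, Tbx5, Irx3 (-0.39) and Cacna2d2 (-0.40), the last pair named after their values were seen.

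Of 24 regulators of conduction, most of them transcription factors and the others signalling ligands or receptors, 18 could be tested and 1 was called (all genes 0.107%). Irx2, an Iroquois homeobox gene, fell with caffeine from 14.3, 20.3 and 21.1 CPM to 5.60, 7.79 and 4.81 CPM (log2 difference -1.60, SE 0.21, edgeR adjusted p = 0.0242). The treatments did not overlap. The adjusted p was 0.0807 without vehicle heart 2, 0.0903 without caffeine heart 1 and 0.0938 without caffeine heart 3, so the call needs each of these hearts. The list median was -0.10, with 16 of 18 below 0 (all genes 49.8%) and 3 genes lower without overlap (all genes 7.12%). Those genes were Irx2, Tbx5 and Irx3. Tbx5, Irx3 and Nkx2-5 are among the genes that also stand on the list of ventricular conduction genes, so the lists do not count separate genes. Irx1 was at 18.9, 31.0 and 28.2 CPM with vehicle and 12.9, 19.3 and 17.4 CPM with caffeine (-0.65, edgeR adjusted p = 0.324). Tbx5, a T-box activator of conduction genes, was at 30.7 to 39.5 CPM with vehicle and 22.7 to 25.1 CPM with caffeine (-0.53, edgeR adjusted p = 0.193). The log2 differences of Gata4 (-0.10) and Tbx20 (-0.05) were close to 0.

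The other gap junction genes and the intercalated disc, where most ventricular gap junctions sit, held no gene called by the quasi-likelihood test. With 0.107% of all genes called, that says little about these lists. Of 20 other connexins and pannexins, 7 had no count in any heart and only 4 could be tested. Of these, 1 had an unadjusted p below 0.05 (all genes 8.82%), and the exact test (0.718%), DESeq2 (0.512%) and limma-voom (0.107%) called 0. Panx1, a pannexin channel gene, was at 1.32 to 3.04 CPM with vehicle and 2.94 to 5.28 CPM with caffeine (log2 difference 0.79, edgeR adjusted p = 0.554). Gja4 (connexin 37, of endothelium) differed by -0.24 and Gja3 (connexin 46) by 0.15, both with overlap. All 23 disc genes were tested, with a median of -0.06, 15 below 0 and 8 above. Treatments did not overlap for 4 genes that were lower (all genes 7.12%) and 2 that were higher (7.11%). An unadjusted p below 0.05 was found for 4 (8.82%), and the exact test (0.718%), DESeq2 (0.512%) and limma-voom (0.107%) called 0. Ctnna3, the gene of alpha-T-catenin, was at 34.2, 29.8 and 32.5 CPM with vehicle and 26.2, 18.9 and 21.7 CPM with caffeine (-0.54, edgeR adjusted p = 0.214). The log2 difference of Dsg2, a desmosomal cadherin gene, was -0.45. For the abundant Des, Dsp and Xirp2 they were 0.19, -0.15 and 0.09.

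**Figure D4:**
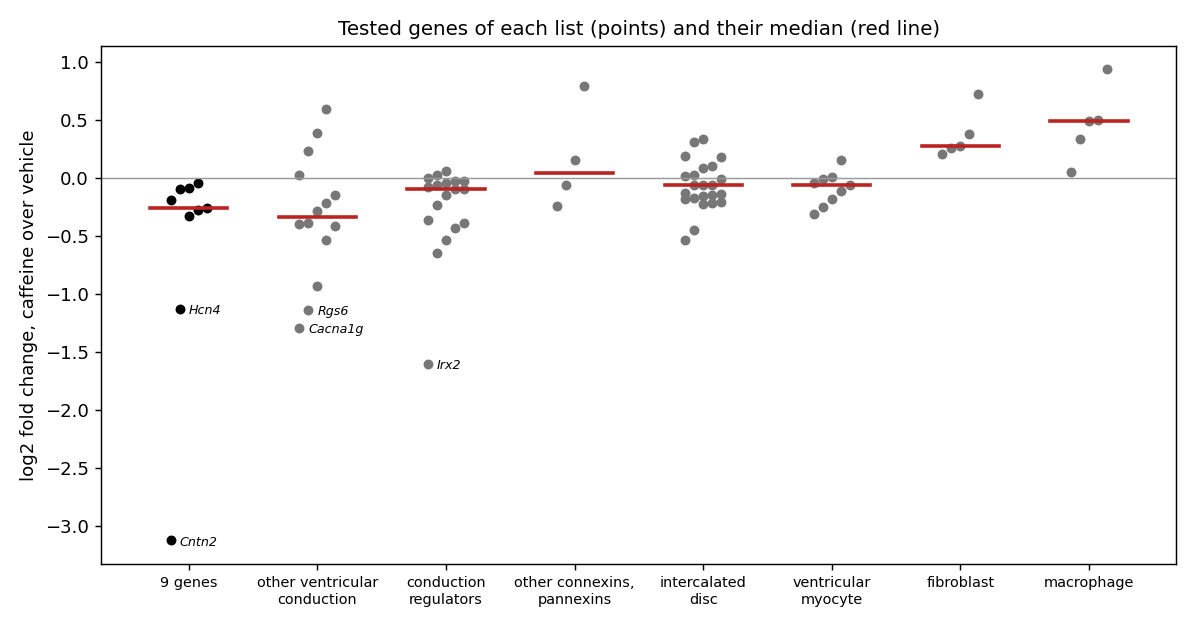
Log2 fold change of caffeine over vehicle (y axis) for every tested gene (points) of the 9 genes and 7 gene lists (x axis), with red lines at the medians. The 9 genes have a median of -0.26 with Cntn2 far below the rest, and Irx2 is the lowest point of any other list.

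Markers of some other cells differed between treatments. Summed fibroblast markers were 667 to 817 CPM with vehicle and 889 to 1054 CPM with caffeine, without overlap, and 5 of 5 genes had a log2 difference above 0. Macrophage markers summed to 154 to 249 and 190 to 371 CPM, with overlap and 5 of 5 above 0. Endothelial sums (632 to 719 and 638 to 697 CPM), arterial endothelial sums (109 to 149 and 128 to 131 CPM) and smooth muscle sums (809.5 to 957 and 787 to 962 CPM) overlapped. The part of these cells in the values of the 9 genes was not tested.

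Nerve and glial genes matter here because axons and their sheath cells also use Cntn2. The 14 markers summed to 26.0 to 29.3 CPM with vehicle and 15.4 to 22.1 CPM with caffeine, without overlap, and 3 could be tested. Th and Gap43 had no count in any heart. Dbh, the gene of the noradrenaline-forming enzyme, was singled out after its values were seen. It was at 17.0, 18.8 and 22.0 CPM with vehicle and 12.6, 9.26 and 6.10 CPM with caffeine. That was most of the sum in each vehicle-treated heart, but less than the other 13 markers together in caffeine heart 3. Without Dbh the other 13 markers summed to 7.29 to 8.99 and 8.24 to 9.52 CPM, with overlap. The part of nerve cells in the Cntn2 difference was not tested.

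Nodal and atrial genes were also followed, since either tissue could carry Hcn4 and Gja5 into a sample. Of 13 nodal genes 8 could be tested and the quasi-likelihood test called 0, with 4 at an unadjusted p below 0.05 (all genes 8.82%) and 1 called by the exact test (0.718%) and by DESeq2 (0.512%). The called gene was Cacna1g, which had already been counted on the list of ventricular conduction genes, and Kcnj3 is also on both lists. The widest nodal difference was that of the calcium channel gene Cacna1d, singled out after its values were seen. Cacna1d was at 0.488, 0.379 and 0.304 CPM with vehicle, close to the 3-count floor, and 1.40, 1.24 and 1.29 CPM with caffeine (log2 difference 1.71, edgeR adjusted p = 0.189). It passed the filter on low counts through its caffeine-treated hearts, the group where it was high, so its place as the widest is a description only. The 8 nodal genes had a median of -0.21, 6 below 0 and 2 above. Atrial markers summed to 53.4 to 182 CPM with vehicle and 267 to 435 CPM with caffeine, nearly all of it Nppa, the natriuretic peptide gene that ventricles also switch on (singled out after its values were seen). The atrial genes Myl7, Sln and Bmp10 were at 0.352 CPM or less in every heart. Myl4, the remaining atrial marker, passed the filter at 1.23 to 1.76 CPM with vehicle and 0.700 to 1.64 CPM with caffeine, with overlap.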

How the data were processed

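The authors selected poly(A) RNA, made libraries with a kit that does not mark strand, and sequenced single-end reads in 1 run. Per the labels they used FastQC, TopHat2 and HTSeq with mm10 (GRCm38). The deposited values are raw counts per gene for each heart, not normalized and not pooled; the strand setting is not given in the sources used here. Genes were filtered with filterByExpr (minimum count 10, minimum total 15), scaled by TMM and fitted with the quasi-likelihood test of edgeR 4.0.16 in R 4.3.3, with treatment as the only term. Calls need a Benjamini-Hochberg adjusted p below 0.05 and a fold change above 1.5. Alternatives were edgeR's exact test, DESeq2 1.42.0, limma-voom (limma 3.58.1), other scalings and filters, the replicate number as a block, each heart left out, and transcript lengths. The fits were tested on simulated data in which only well-counted genes were changed and every gene was given the same spread between hearts. That setting did not cover genes of fewer counts, such as Cntn2 and Etv1. Symbols, positions and exon lengths came from GENCODE M21 by Ensembl identifier (42462 of 43629 matched). The members and gene lists were chosen with earlier results of these data known. Named are all members, every called list gene, from 4 lists the 3 genes of largest change and the 3 of highest level, and the 5 genes most like Cntn2. Some list genes are not reported here. The total counts per heart limit precision, and 3 counts were taken as the floor.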

Additional observations from a re-analysis of the deposited data

How the results depend on the processing

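The 9 log2 fold changes moved by less than the spread between hearts (1 pooled SD) under every alternative run that gave a value. This mark is wide, since leaving out 1 of 3 hearts can hardly move a difference by that much. The ranges below are therefore given as a description. Cntn2 ranged from -3.46 to -2.58 and was removed by the filter of at least 10 counts in every sample. Hcn4 ranged from -1.31 to -1.01, Hcn2 from -0.34 to -0.20, Hopx from -0.43 to -0.13, Etv1 from -0.59 to -0.11 and Gjc1 from -0.19 to -0.03. Ranges that crossed 0 were -0.47 to 0.02 for Tbx3, -0.27 to 0.07 for Gja1 and -0.15 to 0.02 for Gja5. Counts of calls moved most. Of the 9 members 0 were called (all genes 0.107%). The exact test of edgeR (0.718%), DESeq2 (0.512%), library size only, no filter on low counts and the replicate block each called 2, Cntn2 and Hcn4. The calls over all genes in these settings are given below. Leaving out 1 heart gave 0 to 1 (Cntn2 without vehicle heart 1, Hcn4 without vehicle heart 3). Of other ventricular conduction genes 0 were called, against 2 by the exact test, DESeq2 and no filter, 1 with the replicate block and 0 to 2 with 1 heart left out (2 without vehicle heart 3, Cacna1g and Igfbp5). No filter gave 1 other connexin and 2 conduction regulators, and leaving out 1 heart gave 0 to 1 regulators. Over all 13092 tested genes, 11 were called higher and 3 lower by the quasi-likelihood test. These became 61 and 33 by the exact test, 39 and 28 by DESeq2 and 29 and 11 with the replicate block. With no filter they were 145 and 95 among the 22407 genes with a count. Library size only gave 12 higher and 15 lower, and with 1 heart left out 4 to 17 were higher and 0 to 13 lower. The lowest, 4 higher and 0 lower, came without vehicle heart 2 and without caffeine heart 3. No pairing by replicate number was seen across genes. Same-number deviations correlated at 0.05, -0.03 and -0.04, and those of unlike numbers between -0.08 and 0.12. The check cannot exclude a pairing that affects few genes, and the labels do not say whether the numbers pair the hearts. With longest transcripts 2 members changed rank in the vehicle order (Hcn4 and Gja5) and 2 in the caffeine order (Tbx3 and Gjc1). The causes were not tested. At these depths Cntn2 in caffeine-treated hearts and Etv1 rest on few counts, and 3 hearts per treatment of unknown litter limit every interval.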
